A study of Rattus norvegicus with 63 samples.

Results

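The genes described here encode plasma proteins of the complement system and of blood coagulation, together with their inhibitors, in the livers of compound-treated rats. A list of 49 such genes was matched to the array by gene symbol, and 33 had a probe set of their own, out of 10411 genes that could be named on the array. Where a gene had several probe sets, the one with the highest mean over all arrays was used. C2, Cfb, C4a, C4b, C7 and Kng1 (6 genes) lay only on probe sets shared with another gene, and no probe set carried the symbol of C5, C6, C8a, C8g, F7, F9, F11, F12, F13b or Serpinc1 (10 genes), so these 16 were not analysed here.

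Male Wistar Hanover rats, aged 8 to 10 weeks, were dosed daily by gavage, and RNA of whole liver was measured on 63 arrays, 1 array per animal and 3 animals per group. In the treated groups these were picked out of 5 because their livers showed changes in histopathology. Compounds given for 14 days were Acetamide (AA, 3000 mg/kg/day), Dehydroepiandrosterone (DHEA, 600), Methylcarbamate (Mcarb, 400), Cefuroxime (CFX, 250), Nifedipine (Nif, 3), Cyproterone acetate (CPA, 100), Ethionine (ETH, 200) and Phenobarbital sodium (PB, no dose in the labels). C.I Direct Black (CIDB, 146), Dimethylnitrosamine (DMN, 4), Methapyrilene HCl (MPy, 60) and Thioacetamid (TAA, 19.2) were given for 7 days, and Diethylstilbestrol (DES, 10), Piperonylbutoxide (PBO, 1200) and Wy-14643 (Wy, 60) for 3 days. Each compound was set against the vehicle animals that its labels assign to it. Methylcellulose set 1 served for AA, DHEA, MPy, Mcarb, TAA and Wy, set 2 for CFX and Nif, set 5 for DES, ETH and PBO, and set 6 for PB. Corn oil set 3, dosed for 7 days, served for CIDB and DMN, and corn oil set 4, dosed for 14 days, for CPA. Compounds with a common set share their control animals, so their results are not independent of each other. By the labels the methylcellulose sets were dosed for 14 days, against 3 or 7 days for DES, MPy, PBO, TAA and Wy, whereas the study's methods call its controls matched in time. If the labels hold, compound and days of dosing cannot be told apart for these 5.

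Levels are log2 values, so that a difference of 1 is a doubling, and differences are given ± SE of the limma fit to all 63 arrays. A gene was called when its Benjamini-Hochberg adjusted p-value, taken over the 15866 probe sets of the array, was under 0.05. With 3 treated and 3 vehicle animals the smallest exact two-sided permutation p is 0.1, and the calls therefore come from the model across probe sets. Levels of different genes are not compared, since probe sets differ in brightness. The tissue is taken from its label. Of 13 hepatocyte markers measured, Alb (14.89 to 15.11 over all arrays), Ttr (13.93 to 14.37) and Apoh (13.89 to 14.23) were well above the array medians (7.421 to 7.51). The probe sets of Hnf4a (8.18 to 10.15), Foxa2 (8.15 to 9.79) and Cebpa (6.99 to 9.5) were dimmer, and that of Cebpa reached below those medians. In whole liver, fewer cells of a type and less RNA per cell cannot be told apart.

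Complement is a cascade of plasma proteases that marks microbes and damaged cells for removal. In the classical pathway, C1q binds immune complexes and activates the proteases C1r and C1s, and in the lectin pathway mannose-binding lectins act through the proteases MASP-1 and MASP-2. Coagulation is a second cascade, which ends in thrombin and fibrin, is held back by protein C, protein S and several serpins, and is undone by plasmin. Hepatocytes make most of these proteins, whereas C1q is made mainly by macrophages, in the liver by Kupffer cells.

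Promoter sequence is shown for 4 genes that carry the main contrasts below: C1r, which fell, C1qa and C1qb, which moved in both directions, and C4bpb, which rose and fell with different compounds. Each run holds the 250 bases before the annotated start of the gene in RefSeq (build GRCr8), 5′ to 3′ on the strand of the gene, and capitals mark motif matches. C1r lies at chr4:159098763-159099012 on the plus strand, and C1qa at chr5:154419934-154420183, C1qb at chr5:154407828-154408077 and C4bpb at chr13:44683782-44684031 on the minus strand.
C1r: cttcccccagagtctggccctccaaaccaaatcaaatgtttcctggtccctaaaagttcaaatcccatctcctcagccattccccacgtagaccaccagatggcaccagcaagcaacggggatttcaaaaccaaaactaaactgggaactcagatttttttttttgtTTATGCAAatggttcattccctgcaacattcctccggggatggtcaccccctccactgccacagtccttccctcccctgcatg
C1qa: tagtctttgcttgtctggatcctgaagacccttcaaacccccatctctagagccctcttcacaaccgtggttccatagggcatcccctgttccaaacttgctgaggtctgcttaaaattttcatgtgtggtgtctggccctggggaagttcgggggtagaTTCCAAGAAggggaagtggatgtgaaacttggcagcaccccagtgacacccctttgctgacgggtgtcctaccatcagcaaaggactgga
C1qb: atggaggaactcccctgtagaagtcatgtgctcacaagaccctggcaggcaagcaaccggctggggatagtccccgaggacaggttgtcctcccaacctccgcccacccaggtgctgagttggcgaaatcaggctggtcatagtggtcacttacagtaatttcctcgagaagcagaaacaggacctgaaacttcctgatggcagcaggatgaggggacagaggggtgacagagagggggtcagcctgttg
C4bpb: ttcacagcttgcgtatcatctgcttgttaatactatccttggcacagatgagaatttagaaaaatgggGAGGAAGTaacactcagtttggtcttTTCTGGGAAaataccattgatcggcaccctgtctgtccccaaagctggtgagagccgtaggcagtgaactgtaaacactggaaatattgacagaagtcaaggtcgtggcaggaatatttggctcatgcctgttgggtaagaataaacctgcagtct

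The table of promoters held 23 of the 33 measured genes, and 5 short motifs were searched on both strands. A C/EBP motif (TTGCNNAA) lay in 5 of the 23 promoters (C1r, C3, C8b, C4bpa and Klkb1), and in 9.2% of all 27457 promoters. A STAT motif (TTCNNNGAA) lay in 4 (C1qa, C4bpb, Vtn and Pros1), against 7.52% of all promoters. The PU.1 motif GAGGAAGT lay in 1 (C4bpb, 2.04% of all), the HNF1 motif GTTAATNAT in 2 (C4bpa and Plg, 0.67% of all) and the HNF4 motif CAAAGTCCA in 0 (0.331% of all). The motifs do not overlap one another in the sequences shown. A match is a run of letters and no evidence of binding, and C1qb held no match to these 5.

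Across the 15 compounds, lower levels were far more frequent than higher ones. Of 495 comparisons of a gene with its vehicle set, 127 were called lower and 17 higher. The matching shares over all probe sets are given by compound below. In 143 of these 144 calls the 3 treated and 3 vehicle arrays did not overlap, which is no separate support for a call. Arrays also lay apart without a call: with CFX 8 genes lay above vehicle on all arrays and 0 were called. How many of all probe sets lay apart in this way was not counted, so these counts have no background. At least 1 compound lowered 30 of the 33 genes, and at least 1 raised 11. For neither of these counts is a share over all probe sets at hand, so neither can be set against the array.

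DHEA and Wy lowered 25 of the 33 genes each and raised 0, and 24 genes were lower with both, which share their vehicle animals. Over all probe sets DHEA lowered 8.37% and raised 9.3%, and Wy lowered 6.45% and raised 6.5%. The median difference of the 33 genes was −0.41 for DHEA and −0.46 for Wy, while that of all probe sets was 0.01 and −0.00.

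ETH lowered 16 genes and raised 6, against 11.8% of all probe sets lower and 11.7% higher. DES lowered 15 and raised 0 (8.72% and 6.77% of all probe sets), and CPA lowered 13 and raised 0 (4.73% and 3.11%). MPy lowered 10 and raised 0 (3.04% and 3.28%), PBO lowered 10 and raised 2 (7.46% and 7.03%), and TAA lowered 8 and raised 0 (3.25% and 3.15%). In all of these the share of the 33 genes that was lower, 24.2% to 48.5%, was above that of all probe sets. The shares over all probe sets include dim ones, and brightness was not matched. With probe sets of a mean under 6 left out, ETH called 67.7% of the listed genes in either direction, against 28.7% of all. PBO then called 35.5% against 18.2%.

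CIDB lowered 4 genes and raised 4 (5.75% and 8.14% of all probe sets), that is 12.1% of the 33 genes in each direction. Nif lowered 1 and raised 3 (4.68% and 3.78%), and PB lowered 0 and raised 2 (0.384% and 0.964%). None of the 33 genes was called in either direction with AA (1.92% lower, 2.74% higher), Mcarb (0.284% and 0.782%), DMN (0.92% and 2.31%) or CFX (0.0% and 0.0063%). At an unadjusted p under 0.05 there were 4 such genes with AA (12.1% of the 33, against 19.7% of all probe sets), 10 with Mcarb (30.3% against 10.3%), 5 with DMN (15.2% against 16.0%) and 1 with CFX (3.03% against 3.48%). Array weights called 6 genes with DMN (18.2% against 22.1% of all probe sets), 1 with AA (3.03% against 9.34%) and 1 with Mcarb (3.03% against 1.73%), and Mcarb had 5 with pooled vehicle animals (15.2% against 6.62%).

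Several of the smaller counts fell when 1 animal was left out, and in the cases below the share called over all probe sets fell too. With all animals that share was 6.32% for MPy, 6.4% for TAA, 13.9% for CIDB, 8.46% for Nif and 1.35% for PB. Whether a fall came from the animal or from the smaller number of arrays was not tested. MPy had 6 called genes without MPy animal 2, or without vehicle animal 4 or 6 of set 1 (18.2%, against 4.11% to 4.41% of all probe sets). TAA had 2 without vehicle animal 4 of set 1 (6.06% against 3.83%), 3 without TAA animal 3 (9.09% against 3.91%) and 4 without vehicle animal 6 (12.1% against 3.89%). CIDB had 4 in all without CIDB animal 1 or 2 or vehicle animal 6 of set 3 (12.1% against 9.81% to 12.2%). Without vehicle animal 5 it had 5 (15.2% against 10.2%). Nif had 1 or 2 without any one of its 6 animals (3.03% or 6.06%, against 3.98% to 7.21%). PB had 0 without PB animal 1 (0.0% against 0.555%), and 1 without PB animal 2 or 3 or vehicle animal 1 of set 6 (3.03% against 0.693% to 0.763%).

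**Figure D1:**
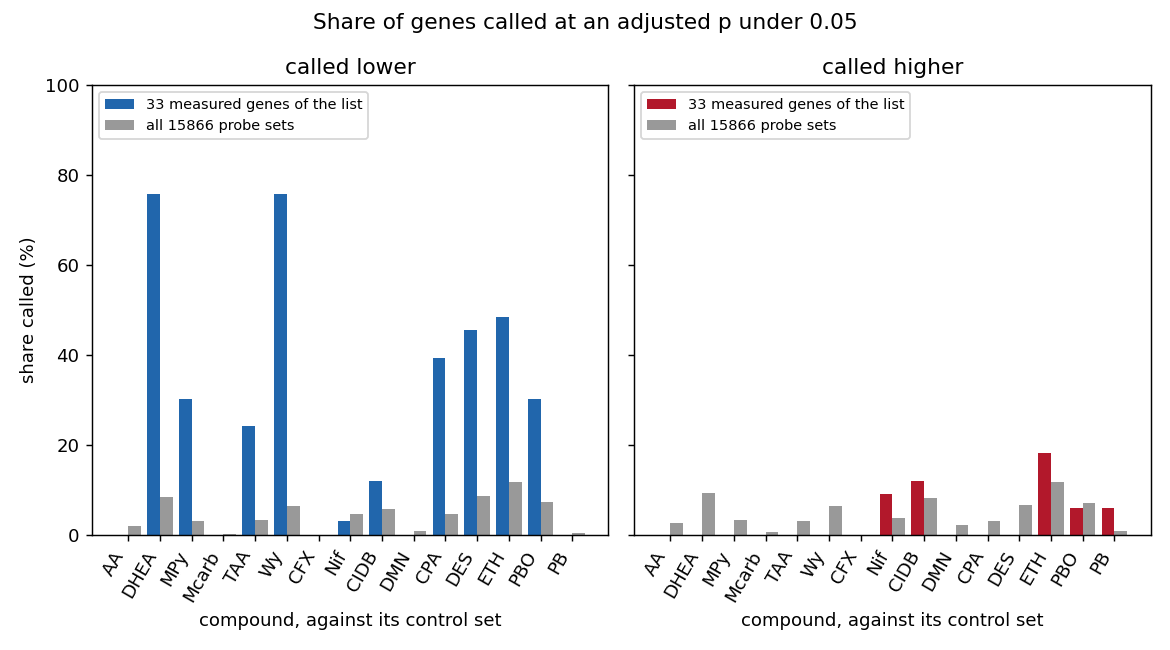
Share of genes called lower (left) and higher (right) for each compound against its vehicle set, as percent of the 33 measured complement and coagulation genes (coloured bars) and of all 15866 probe sets (grey bars). With DHEA and Wy 75.8% of the 33 genes were lower, against 8.37% and 6.45% of all probe sets.

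**Figure D2:**
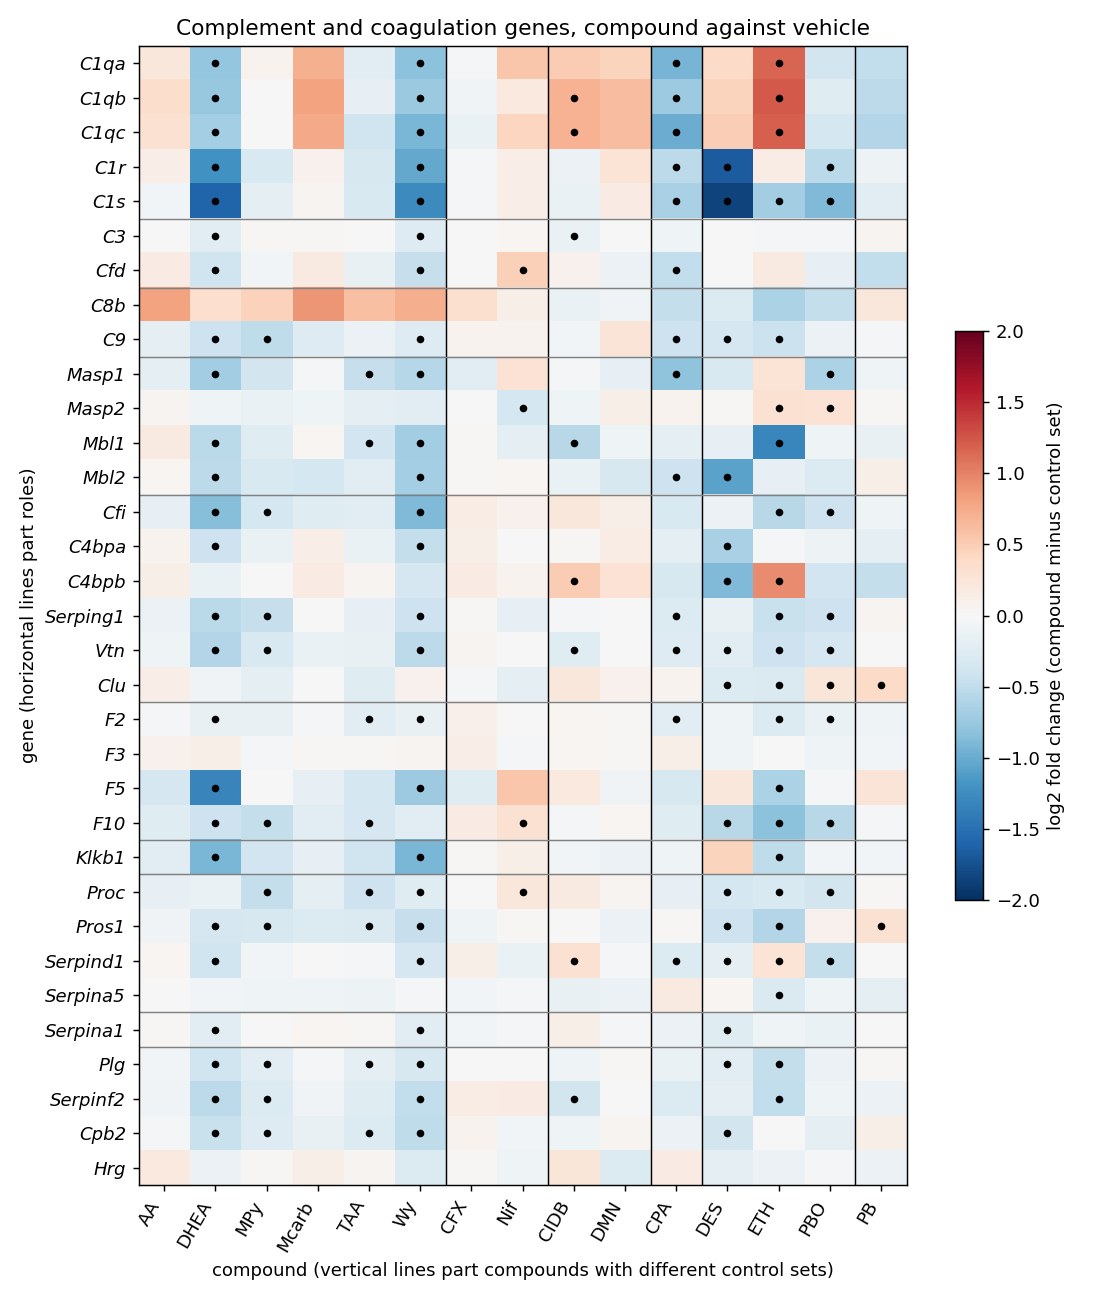
Log2 difference of each of the 33 genes (rows, grouped by role) in each compound (columns, grouped by vehicle set) from vehicle, with a dot where the gene was called. C1r and C1s were lower with DES, DHEA, Wy, PBO and CPA, while the C1q genes were higher with ETH and lower with DHEA, Wy and CPA.

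The proteases of the first complement component gave the largest differences among the 33 genes. C1s, which cleaves C4 and C2 once C1r has activated it, was 9.95, 10.15 and 10.57 in DES livers, against 11.97, 12.02 and 12.22 in set 5. Every DES animal lay more than 1 log2 unit below every vehicle animal, and the difference was −1.85 ± 0.16, that is 3.59 times lower (limma, adjusted p = 1.9e-12). In DHEA livers C1s was 10.12, 10.32 and 11.02, against 11.99, 12.03 and 12.22 in set 1, a difference of −1.60 ± 0.16 (adjusted p = 1.06e-10). In Wy livers it was 10.58, 10.83 and 11.01 against the same set 1, lower by 2.42 times (−1.28 ± 0.16). No treated animal reached the vehicle range in either comparison. C1s was also called lower with PBO (−0.88 ± 0.16), ETH (−0.69 ± 0.16) and CPA (−0.65 ± 0.16), so that 6 compounds lowered it and none raised it.

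C1r, the protease that activates C1s and lies near it on chromosome 4, fell with 5 of these compounds. It was 9.36, 9.64 and 9.98 in DES livers, against 11.26, 11.28 and 11.42 in set 5 (−1.66 ± 0.15). With DHEA it was 9.70, 10.01 and 10.58, against 11.17, 11.27 and 11.50 in set 1 (−1.21 ± 0.15), and with Wy it was 10.07, 10.30 and 10.46 (−1.03 ± 0.15). All these treated animals lay below their vehicle animals. The differences were smaller with PBO (−0.54 ± 0.15) and CPA (−0.52 ± 0.15). With ETH, where C1s was lower, C1r differed by 0.15 and was not called.

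The 3 chains of C1q, the recognition part of the same complex, moved together and in part against C1r and C1s. In ETH livers C1qb was 9.83, 9.92 and 9.93, against 8.29, 8.73 and 9.01 in set 5, a rise of 1.22 ± 0.23 (2.33-fold, limma adjusted p = 5.1e-05). C1qa was 10.52, 10.63 and 10.75 in ETH livers, against 8.94, 9.37 and 10.10 in set 5 (1.16 ± 0.24). C1qc was 10.08, 10.21 and 10.24 in ETH livers, against 8.43, 9.05 and 9.49 in set 5 (1.19 ± 0.25). The ETH animals lay close together and the vehicle animals far apart, without overlap. CIDB raised C1qb by 0.70 ± 0.23 and C1qc by 0.70 ± 0.25, while C1qa differed by 0.50 and was not called. With DES, where C1r and C1s were lowest, the C1q genes differed by 0.39 to 0.49 and none was called.

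CPA, Wy and DHEA lowered all 3 C1q genes. With CPA, C1qc was 8.59, 9.02 and 9.03, against 9.56, 9.91 and 10.18 in set 4, lower by 2.00 times (−1.0 ± 0.25). C1qa differed by −0.93 ± 0.24 and C1qb by −0.72 ± 0.23 in the same livers. With Wy, C1qc was 8.77, 8.95 and 8.96, against 9.66, 9.77 and 9.99 in set 1 (−0.91 ± 0.25). None of these animals overlapped with vehicle. The falls were −0.82 and −0.75 for C1qa and C1qb with Wy, and −0.77, −0.76 and −0.68 for C1qa, C1qb and C1qc with DHEA. Between vehicle sets the C1q genes differed by up to 0.82 (C1qc, set 1 against set 5, not called), about the size of these falls. With vehicle animals pooled by vehicle, the C1q genes were no longer called with CPA (−0.38 to −0.69), DHEA (−0.27 to −0.41), Wy (−0.41 to −0.51) or CIDB (0.33 to 0.36 for the pair called), and stayed called with ETH (0.78 to 0.82, adjusted p from 0.00251 to 0.00711). All 3 were called under that pooling with Mcarb (1.12 to 1.16, adjusted p from 0.000435 to 0.000831) and, as lower, with PBO (−0.64 to −0.76, adjusted p from 0.0142 to 0.0382), where set 5 alone gave −0.25 to −0.36 and no call.

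Macrophage markers moved with the C1q genes in most, not all, of these livers. Of a list of 12 markers 7 were measured (Cd14, Cd68, Clec4f, Csf1r, Gpnmb, Lgals3 and Lyz2), and Cd163, Marco, Adgre1, Vsig4 and Mrc1 were not among them. In ETH livers 6 of the 7 rose and Cd14 fell, and their mean log2 level was 10.06 to 10.18, against 9.08 to 9.48 in set 5. Clec4f, a Kupffer cell lectin, rose there by 1.22. In CIDB livers 3 rose and 1 fell (9.51 to 9.60, against 8.98 to 9.40 in set 3). DHEA lowered 5 (8.72 to 9.01), Wy lowered 2 (8.89 to 9.19), both against 9.50 to 9.68 in set 1, and CPA lowered 3 (8.86 to 9.23, against 9.32 to 9.85 in set 4). With DES 0 of the 7 were called by limma, and 1 (Lgals3, 0.49) had an unadjusted p under 0.05 (9.22 to 9.37, against 9.08 to 9.48 in set 5). The mean C1q level followed on the same arrays, from 10.21 to 10.27 in ETH livers, against 8.55 to 9.53 in set 5. The part of the macrophage markers in the C1q differences was not tested. Among the 30 genes other than C1q, DHEA and Wy lowered 22 each and CPA lowered 10. Markers of other liver cells moved in the same livers: of 10 stellate cell and matrix genes DHEA lowered 4, CPA lowered 4 and raised 1, and Wy lowered 2, and of 6 endothelial genes DHEA and Wy lowered 4 each and CPA 2, and their part was not tested either. Over all probe sets DHEA lowered 8.37%, Wy 6.45% and CPA 4.73%, while ETH raised 11.7%, CIDB 8.14%, CPA 3.11% and DMN 2.31%. In DMN livers 4 of the 7 markers rose (Gpnmb by 1.78, Lgals3 by 1.65, Lyz2 by 1.37 and Cd68 by 0.97) and Cd14 fell (mean 9.86 to 10.01, against 8.98 to 9.40 in set 3), while the C1q genes differed by 0.45 to 0.61 and none was called. Mcarb had the highest single array, with a C1q mean of 11.08, and its 3 C1q genes differed by 0.71 to 0.81 from set 1 and were called only with pooled vehicle animals, while the markers Csf1r and Gpnmb were called against set 1.

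**Figure D3:**
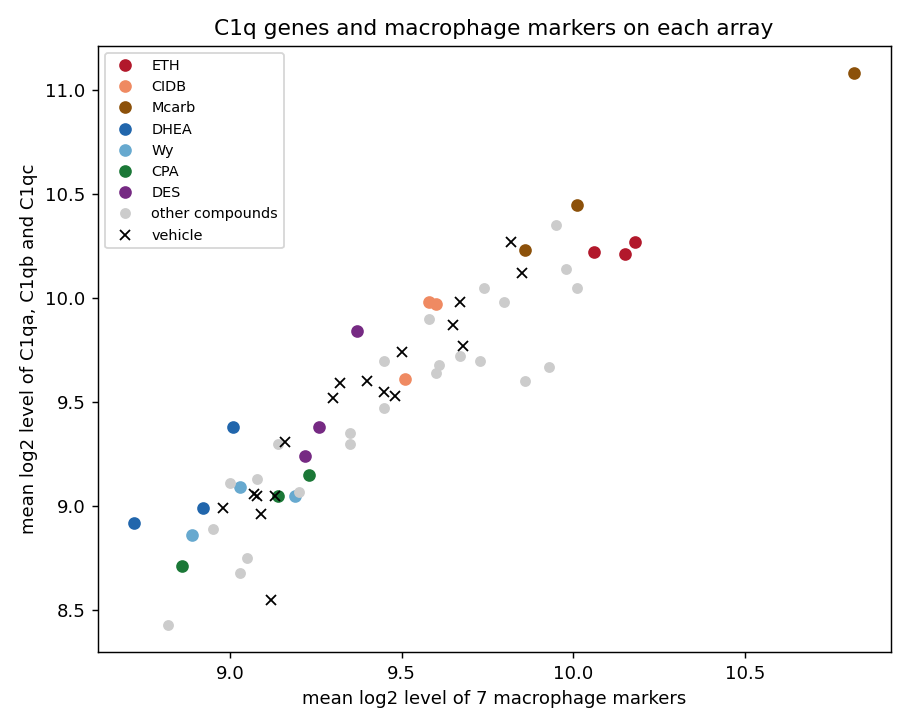
Mean log2 level of C1qa, C1qb and C1qc (vertical) against the mean log2 level of 7 macrophage markers (horizontal) on each of the 63 arrays. The ETH arrays have C1q means of 10.21 to 10.27, the DHEA, Wy and CPA arrays lie between 8.71 and 9.38, and crosses mark vehicle animals.

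**Figure D4:**
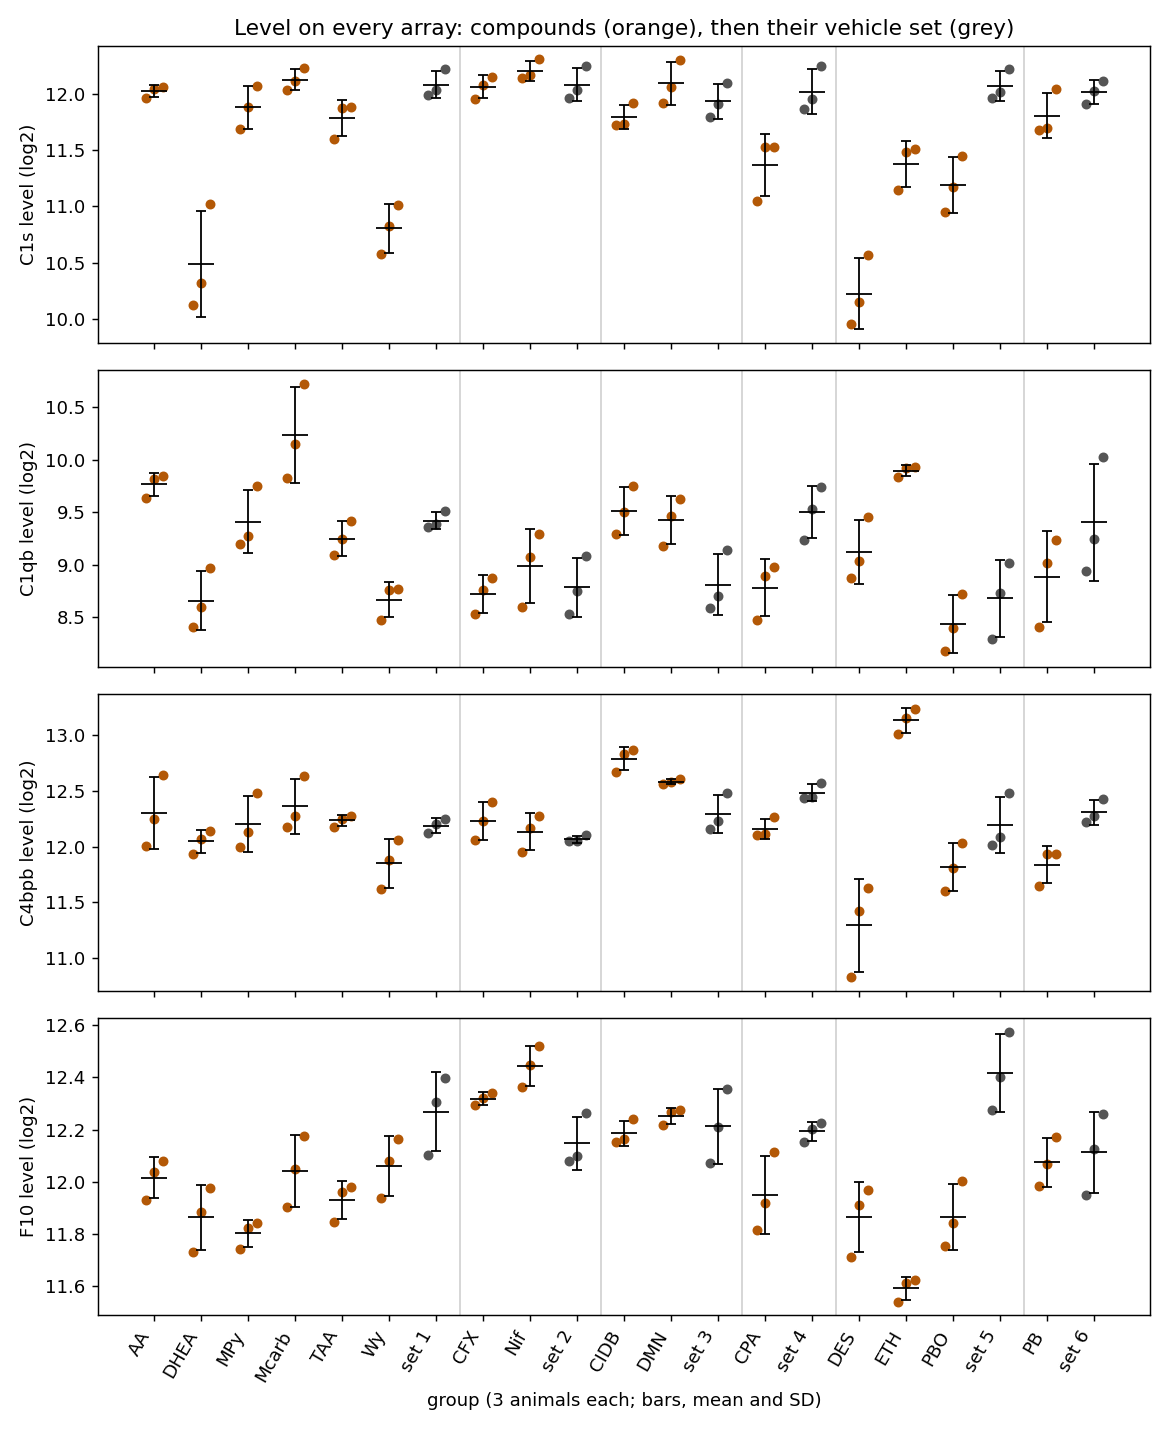
Log2 level of C1s, C1qb, C4bpb and F10 on every array, each compound left of its vehicle set, with bars for mean and SD (n = 3). C1s is lowest in DES and DHEA livers, whereas C1qb and C4bpb are high in ETH livers, where F10 is at 11.54 to 11.62.

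Of the lectin pathway genes, Mbl1 and Mbl2 encode mannose-binding lectins, which bind sugars on microbial surfaces. Mbl1 was 10.35, 10.44 and 10.66 in ETH livers, against 11.64, 11.87 and 11.88 in set 5 (−1.31 ± 0.11, limma adjusted p = 2.45e-13). It was also lower with Wy (−0.70 ± 0.11), CIDB (−0.55 ± 0.11), DHEA (−0.54) and TAA (−0.39 ± 0.11). Mbl2 was 11.06, 11.18 and 11.26 in DES livers, against 12.12, 12.17 and 12.41 in set 5 (−1.07 ± 0.12). The lectins thus fell most with different compounds: Mbl1 differed by −0.17 with DES and Mbl2 by −0.17 with ETH, neither called. Mbl2 was lower with Wy (−0.68), DHEA (−0.53) and CPA (−0.42) too. A further probe set of Mbl2 also fell with DES (−0.92) and Wy (−0.46), but was not called with DHEA (−0.26, adjusted p = 0.0661) or CPA (−0.24, adjusted p = 0.129). It rose with AA (0.68) and fell with Nif (−0.47), where the one used differed by 0.04 in each.

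Masp1 encodes the protease that starts the lectin pathway, and its main probe set was 9.60, 9.90 and 10.12 in CPA livers, against 10.41, 10.77 and 10.84 in set 4 (−0.80 ± 0.12). It was lower with DHEA, PBO, Wy and TAA as well. The other 2 probe sets of Masp1 differed by 0.13 and 0.16 with CPA and by 0.23 and 0.03 with PBO. The falls with CPA and PBO were thus seen with 1 of 3 probe sets. The brighter of the other 2 fell with Nif (−0.75), CIDB (−0.68), DMN (−0.4) and ETH (−0.29) and rose with AA (0.5). The dimmer fell with MPy (−0.31). With none of these compounds was the main probe set of Masp1 called. With Wy the brighter fell too (−0.38), as did the dimmer with DHEA (−0.37) and TAA (−0.31). Masp2, whose protease cleaves C4 and C2, rose by 0.30 with ETH and by 0.29 with PBO and fell by 0.35 with Nif on its main probe set. Its other probe set fell by 1.5 with ETH (adjusted p = 8.1e-16) and was not called with PBO or Nif. The direction for Masp2 in ETH livers therefore depends on the probe set. That other probe set was also called lower with CPA (−0.51), TAA (−0.5), DES (−0.39) and MPy (−0.33), where the main one was not called.

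C3, the protein on which all complement pathways converge, changed little. It was 14.18, 14.23 and 14.34 in Wy livers, against 14.49, 14.51 and 14.53 in set 1 (−0.26 ± 0.05), with DHEA it differed by −0.21 and with CIDB by −0.14. Cfd encodes factor D, the protease of the alternative pathway, and was known first as adipsin from fat tissue. It fell with CPA (−0.50 ± 0.14), Wy (−0.46) and DHEA (−0.40). With Nif it was 7.21, 7.61 and 7.89, against 7.06, 7.10 and 7.11 in set 2 (0.48 ± 0.14). It differed by a like −0.47 between vehicle sets 5 and 6. Of the 5 adipocyte markers listed 2 were measured, and their mean level was 6.05 to 6.27 in Nif livers, against 6.16 to 6.24 in set 2. Their part in the Cfd values was not tested.

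C9 forms the pore of the membrane attack complex and was lower with 6 compounds. It was 12.96, 13.11 and 13.13 in MPy livers, against 13.53, 13.58 and 13.63 in set 1 (−0.51 ± 0.08, adjusted p = 1.37e-05 by limma). The falls were −0.43 with ETH, −0.41 with DHEA and CPA, −0.33 with DES and −0.26 with Wy. C8b, of the same complex, was called with no compound, and its differences ran from −0.63 with ETH to 0.88 with Mcarb. Vehicle animals of set 1 were spread over 10.47, 10.65 and 12.24 for C8b, a spread wider than any of these differences.

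Of the complement inhibitors, Vtn was lowered by 8 compounds, the most of any gene among the 33. It encodes vitronectin, which blocks the membrane attack complex and binds the inhibitor PAI-1. Vtn was 13.58, 13.62 and 13.73 in DHEA livers, against 14.23, 14.24 and 14.24 in set 1 (−0.59 ± 0.07, adjusted p = 1.04e-08). The 3 vehicle animals were nearly equal and all DHEA animals lay below them. With Wy it differed by −0.52 ± 0.07, and with ETH, PBO, MPy, CPA, CIDB and DES by −0.41, −0.33, −0.31, −0.26, −0.24 and −0.23.

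Serping1 encodes the C1 inhibitor, which blocks C1r, C1s and plasma kallikrein. It was 12.18, 12.26 and 12.27 in DHEA livers, against 12.75, 12.78 and 12.82 in set 1 (−0.54 ± 0.07). MPy (−0.46 ± 0.07), ETH (−0.44), PBO and Wy (−0.42 each) and CPA (−0.27) lowered it too. Thus the inhibitor was lower with MPy, with which C1r (−0.30) and C1s (−0.20) were not called, and was not called with DES (−0.15), with which both fell most. Cfi, factor I, which cleaves C3b and C4b, was 11.84, 11.99 and 12.44 in Wy livers, against 12.95, 12.97 and 13.02 in set 1 (−0.89 ± 0.10). It fell by 0.85 with DHEA and also with ETH (−0.56), PBO (−0.42) and MPy (−0.35).

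C4bpa and C4bpb encode the alpha and beta chains of C4b-binding protein, the beta chain being the one that binds protein S in humans, and lie near each other on chromosome 13. With DES both fell, C4bpb to 10.83, 11.43 and 11.63, against 12.01, 12.08 and 12.47 in set 5 (−0.89 ± 0.15), and C4bpa by 0.65 ± 0.10. With ETH C4bpb was 13.01, 13.15 and 13.23 against the same set 5 (0.94 ± 0.15, adjusted p = 2.1e-06), while C4bpa differed by −0.04. CIDB raised C4bpb (0.50 ± 0.15) and left C4bpa at 0.03. With Wy and DHEA the alpha chain fell (−0.48 and −0.42) and the beta chain differed by −0.34 and −0.14, not called. The difference between the chains was not tested. Clu, clusterin, which also hinders the membrane attack complex, was 13.15, 13.15 and 13.20 in PB livers, against 12.75, 12.76 and 12.86 in set 6 (0.38 ± 0.08). It rose with PBO (0.24) and fell with ETH (−0.29) and DES (−0.28). The other, dimmer probe set of Clu differed by −0.22 with PBO, the opposite direction, by 0.19 with PB, −0.22 with ETH and −0.21 with DES, and was called with none of these.

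**Figure D5:**
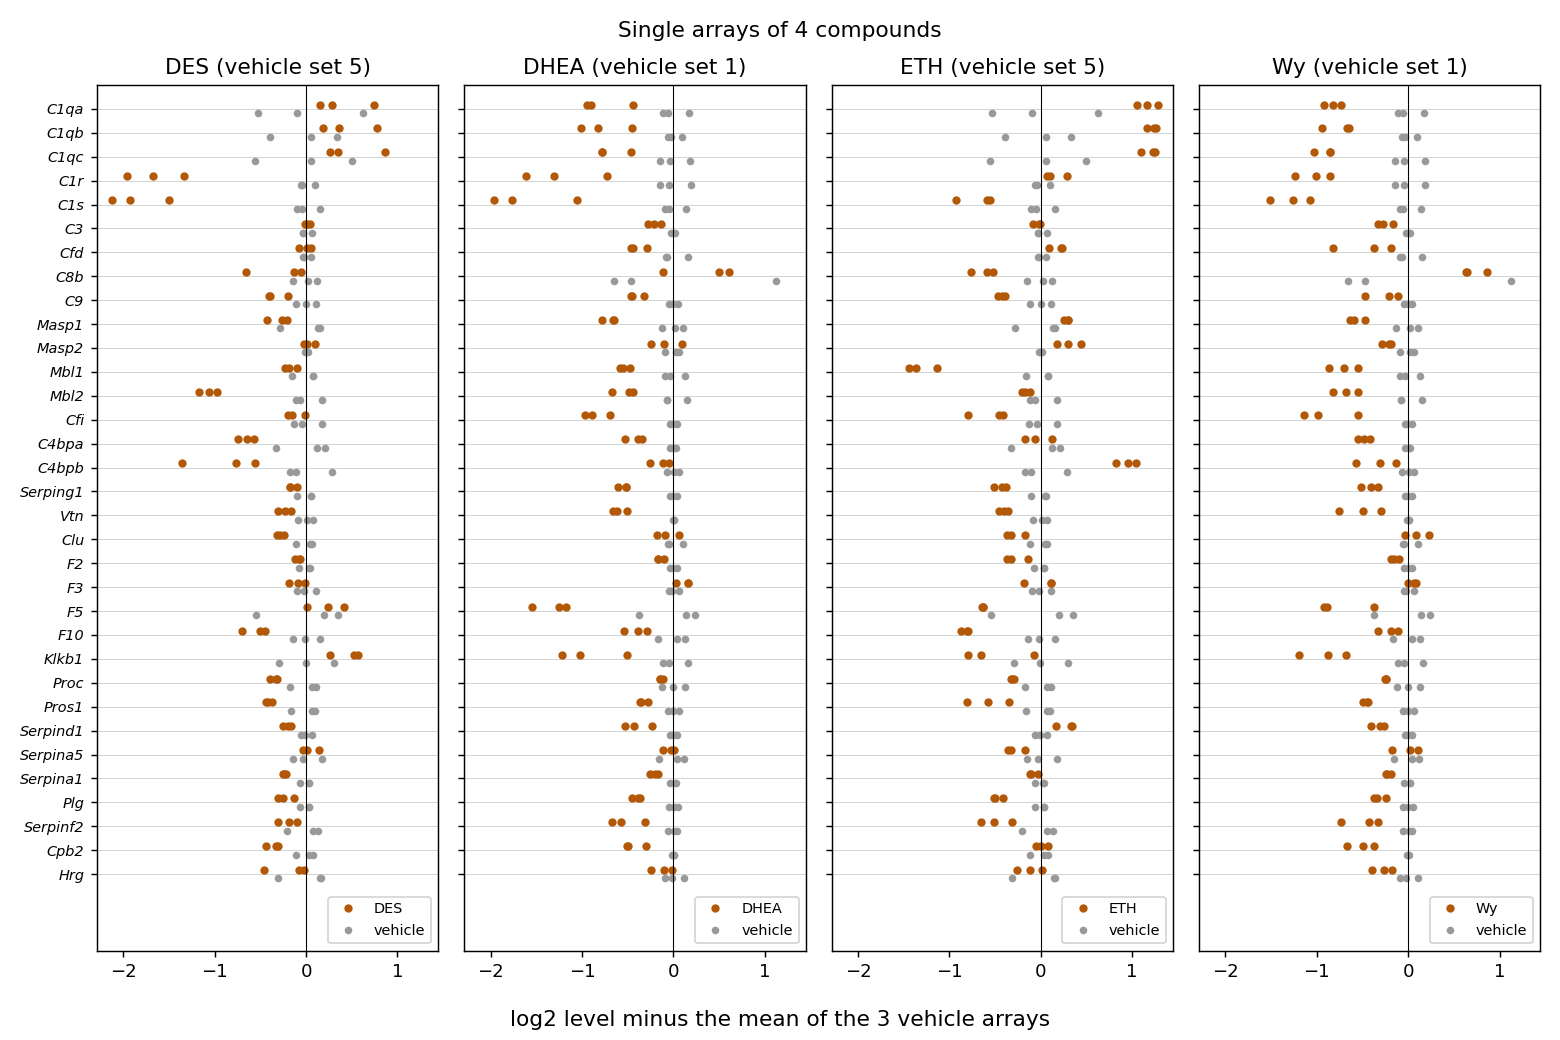
Log2 level of the 33 genes on each array (horizontal) minus the mean of the 3 vehicle arrays, for DES, DHEA, ETH and Wy (orange) and their vehicle animals (grey, drawn below). The C1q genes lie right of 0 in ETH livers and left of 0 in DHEA and Wy livers, and C1s lies farthest left in DES and DHEA livers.

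Among the coagulation factors F10, factor X, whose active form turns prothrombin into thrombin, was called with 7 compounds. It was 11.54, 11.61 and 11.62 in ETH livers, against 12.28, 12.40 and 12.57 in set 5 (−0.82 ± 0.09, adjusted p = 2.75e-10). DES and PBO lowered it by 0.55 ± 0.09 each, MPy by 0.47, DHEA by 0.41 and TAA by 0.34. With Nif it was 12.37, 12.45 and 12.52, against 12.08, 12.10 and 12.26 in set 2 (0.30 ± 0.09). Vehicle set 5 was higher than set 6 by the same 0.30. F2, prothrombin, was lower with 6 compounds by small steps, from −0.28 ± 0.05 with ETH to −0.14 ± 0.05 with PBO, which its small SE allowed to be called. In ETH livers F2 was 12.83, 12.88 and 13.06, against 13.13, 13.24 and 13.25 in set 5.

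F5, the cofactor of factor X, was lower with 3 compounds. It was 9.67, 9.97 and 10.04 in DHEA livers, against 10.84, 11.36 and 11.45 in set 1, lower by 2.50 times (−1.32 ± 0.21). In Wy livers it was 10.30, 10.32 and 10.84 (−0.73 ± 0.21), the highest of these level with the lowest vehicle animal, and in ETH livers it differed by −0.64. Klkb1, plasma prekallikrein of the contact system, fell with the same 3 compounds. It was 10.82, 11.02 and 11.53 in DHEA livers and 10.85, 11.16 and 11.36 in Wy livers, against 11.92, 11.99 and 12.20 in set 1 (−0.91 ± 0.17 for each). With ETH the fall was −0.51 ± 0.17, and this was the 1 called comparison in which treated and vehicle arrays overlapped. F3, tissue factor, was never called and lay at 4.625 to 5.300 on all arrays, near the lowest value on the arrays (3.96).

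Of the natural anticoagulants, Proc (protein C) and Pros1 (its cofactor protein S) were each lower with 6 compounds and higher with 1. Proc was 11.82, 11.91 and 12.00 in MPy livers, against 12.25, 12.37 and 12.50 in set 1 (−0.47 ± 0.07), and was lower by 0.41 with TAA, 0.37 with PBO, 0.35 with DES, 0.31 with ETH and 0.25 with Wy. It rose by 0.22 ± 0.07 with Nif, and was higher by 0.38 in vehicle set 5 than in set 6. Pros1 was 10.22, 10.46 and 10.68 in ETH livers, against 10.87, 11.10 and 11.13 in set 5 (−0.58 ± 0.08). Wy, DES, DHEA, MPy and TAA lowered it by 0.46, 0.41, 0.33, 0.32 and 0.29, and PB raised it by 0.30 ± 0.08. Proc fell with PBO, with which Pros1 differed by 0.09, and Pros1 fell with DHEA, with which Proc differed by −0.14, and these last values were not called.

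Serpind1, heparin cofactor II, which inhibits thrombin, was 12.49, 12.61 and 12.74 in PBO livers, against 13.03, 13.08 and 13.15 in set 5 (−0.47 ± 0.07, adjusted p = 1.46e-06). It was lower with DHEA (−0.40 ± 0.07), Wy (−0.33), CPA (−0.28) and DES (−0.20). In contrast it rose by 0.30 ± 0.07 with CIDB and by 0.28 ± 0.07 with ETH, so that ETH and PBO, set against the same vehicle animals, moved it in opposite directions. Serpina5, the protein C inhibitor, was called with ETH alone (−0.29), on a dim probe set (5.76 to 5.94 in ETH livers, against 5.97 to 6.30 in set 5). Serpina1, the antiprotease alpha-1 antitrypsin, was lower with DES (−0.24), Wy (−0.22) and DHEA (−0.21).

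The genes of fibrinolysis fell as well, both the precursor of plasmin and its inhibitors. Plg, plasminogen, was 13.41, 13.42 and 13.52 in ETH livers, against 13.87, 13.96 and 13.96 in set 5 (−0.48 ± 0.06, adjusted p = 8.04e-09). It was lower by 0.40 with DHEA, 0.32 with Wy, 0.23 with DES and MPy and 0.20 with TAA. Serpinf2 encodes alpha-2 antiplasmin, which blocks plasmin, and fell by 0.52 with DHEA, 0.49 with ETH and Wy, 0.37 with CIDB and 0.28 with MPy. Cpb2, whose product protects fibrin from plasmin, was 11.94, 12.11 and 12.24 in Wy livers, against 12.60, 12.61 and 12.62 in set 1 (−0.51 ± 0.08). It also fell with DHEA (−0.44), DES (−0.36), TAA (−0.27) and MPy (−0.26). Hrg, histidine-rich glycoprotein, was called with no compound and ran from −0.28 with DMN and Wy to 0.24 with CIDB.

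Read by compound, DHEA and Wy each lowered genes of every role measured. With DHEA the medians were −0.77 for the 5 C1 genes, −0.54 for the 4 lectin pathway genes, −0.48 for the 6 complement inhibitors, −0.42 for the 4 fibrinolysis genes and −0.28 for the 4 coagulation factors. With Wy they were −0.91, −0.62, −0.45, −0.41 and −0.18 in the same order. Hepatocyte markers moved in the same livers, and their part was not tested. By limma 5 of 13 were lower and 2 higher with DHEA (8.37% and 9.3% of all probe sets), and 6 lower and 0 higher with Wy (6.45% and 6.5%). MPy lowered C9, F10, 3 complement inhibitors, 2 anticoagulants and 3 fibrinolysis genes. TAA lowered Masp1, Mbl1, F2, F10, 2 anticoagulants and 2 fibrinolysis genes, and no complement inhibitor was called. None of the 5 C1 genes was called with MPy or TAA, where C1s differed by −0.20 and −0.30. PBO lowered C1s, Masp1 and F10 most and raised Masp2 and Clu, on the main probe sets only for Masp1, Masp2 and Clu.

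CPA lowered all 5 C1 genes, along with Masp1 and Mbl2 (each on its main probe set only), Cfd, C9, Serping1, Vtn, F2 and Serpind1. Its 13 calls (39.4%, against 7.85% of all probe sets) were fewer with some animals left out. They were 5 without vehicle animal 1 of set 4 (15.2% against 4.24%), and 8 without CPA animal 1 (24.2% against 3.78%). With the 6 compared arrays alone CPA gave 7 calls (21.2%, against 5.5% of all probe sets), DES 8 (24.2% against 9.38%), TAA 3 (9.09% against 5.53%) and PB 0 (0.0% against 0.321%). DHEA gave 22 (66.7% against 16.6%), Wy 21 (63.6% against 12.2%) and ETH 15 (45.5% against 14.4%).

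AA, TAA and Mcarb are small molecules set against the same vehicle animals at different doses and, for TAA, days. TAA is the sulfur analog of AA. F10 differed by −0.25 with AA, −0.34 with TAA and −0.23 with Mcarb, Proc by −0.17, −0.41 and −0.18, and C1qb by 0.35, −0.17 and 0.81. Only the TAA values of F10 and Proc were called, and the doses of 3000, 19.2 and 400 mg/kg/day allow no comparison of structure.

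The study grouped 12 of the compounds by class, and these class contrasts called 0 of the 33 genes by limma. The compound was the unit of this test, which set 10 carcinogens against 2 non-carcinogens, 8 non-genotoxic against 2 genotoxic carcinogens, and 8 non-genotoxic carcinogens against 2 non-carcinogens. Over all probe sets 0.0126%, 0.0819% and 0.0189% were called in these 3 contrasts. F10 had the lowest p of the 33 in the first, −0.56 ± 0.15 in carcinogens relative to non-carcinogens (adjusted p = 0.385). In the third it was −0.65 ± 0.16 (adjusted p = 0.304). At an unadjusted p under 0.05 there were 4, 5 and 6 of the 33 (12.1%, 15.2% and 18.2%), against 10.1%, 12.3% and 11.5% of all probe sets.

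Differences between vehicle sets that had the same vehicle give a background for these values. None of the 33 genes was called for set 1 against 2 (0.914% of all probe sets in either direction), 1 against 5 (2.14%), 2 against 5 (2.72%), 2 against 6 (1.95%) or the corn oil sets 3 against 4 (0.466%). Set 1 against 6 called Masp1 (7.77% of all), higher by 0.60 in set 1. Set 5 against 6 called 4 genes (10.2% of all), with F10 (0.30) and Proc (0.38) higher and C1qb (−0.73) and Cfd (−0.47) lower in set 5. At an unadjusted p under 0.05, in the 5 pairs with no call, there were 6 genes for set 1 against 2 (18.2% of the 33, against 14.4% of all probe sets), 7 for 1 against 5 (21.2% against 18.6%), 2 for 2 against 5 (6.06% against 15.8%), 9 for 2 against 6 (27.3% against 16.3%) and 9 for 3 against 4 (27.3% against 12.6%). Array weights called 7 genes for set 3 against 4 (21.2% against 10.1% of all probe sets), 3 for set 1 against 2 (9.09% against 9.66%), 3 for set 1 against 5 (9.09% against 3.21%) and 1 for set 2 against 6 (3.03% against 1.7%).

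Other genes of these pathways were taken from a second list. Of 11 further complement genes measured DHEA lowered 4 and raised 1 (8.37% and 9.3% of all probe sets), and Wy lowered 2 and raised 3 (6.45% and 6.5%). CPA lowered 2 (4.73%) and ETH raised 4 (11.7%). Fcna, ficolin A, a recognition protein of the lectin pathway, differed by −1.23 ± 0.25 with DHEA, −1.06 ± 0.25 with CPA, −0.92 ± 0.25 with Wy and 0.74 ± 0.25 with ETH, the same directions as the C1q genes with these 4 compounds. Cfp, properdin, fell with CPA, Wy and DHEA (−0.69, −0.60 and −0.55). Cr1l, a complement regulator of the cell surface, rose by 1.5 ± 0.12 with CIDB, 0.89 with DMN, 0.62 with Wy and 0.49 with DES.

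Of 25 further coagulation and fibrinolysis genes CPA lowered 10 and raised 1 (4.73% and 3.11% of all probe sets), Wy lowered 8 (6.45%) and DHEA lowered 7 (8.37%). PBO lowered 6 and raised 3 (7.46% and 7.03%), ETH raised 5 (11.7%), and DES raised 5 and lowered 3 (6.77% and 8.72%). The counts of 1 and 3 among these 25 genes were near the shares of all probe sets. A2m, the broad protease inhibitor alpha-2 macroglobulin, rose by 5.00 ± 0.31 with ETH and fell by 1.07 ± 0.31 with CPA. Tfpi, which inhibits the start of coagulation by tissue factor, rose with ETH (1.17 ± 0.20), PBO (0.92 ± 0.20), DES (0.81) and CIDB (0.67). Fgb, the fibrinogen beta chain, fell by 0.43 with DHEA and 0.29 with CPA. Gas6, a vitamin K dependent relative of protein S, and Anxa5, which binds phospholipid and hinders clotting, rose by 1.14 each with DES.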

How the data were processed

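The authors deposited 1 log2 value per probe set and array (Affymetrix RAE230A, 15866 probe sets), made from the scanned arrays with RMA, whose version is not given in the sources used here. RMA corrects background, normalizes between arrays and summarizes each probe set, and it compresses differences of dim probe sets. The values ran from 3.96 to 15.11 and array medians from 7.421 to 7.51. No further normalization was applied. Arrays carry no read depth, so their number (3 per group) limits the precision.

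Symbols came from the platform annotation (12783 probe sets with 1 symbol, 312 with several, 2771 with none). A model with 1 mean for each of 21 groups was fitted with limma 3.58.1 in R 4.3.3 (42 residual degrees of freedom, prior 4.81), with Benjamini-Hochberg adjustment across the whole array, and the code was tested on simulated data. Alternatives were the 6 compared arrays alone, controls pooled by vehicle, array weights, quantile normalization, removal of probe sets with a mean under 6, another variance prior, any probe set of a gene, a replicate block and leaving out each array. For class contrasts the compound was the unit. Tables and figures were made with Python 3.11.15, numpy 2.4.6, pandas 2.3.3 and matplotlib 3.10.9. The members and lists were chosen with earlier results of these data known. Named by rule were, per compound, up to 6 called members with the largest change, members called with 6 or more compounds, members never called and up to 3 called genes of each other list. Other values, such as smaller changes of members in their role, were added after they were seen. Control animals are numbered as in the labels.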

Additional observations from a re-analysis of the deposited data

How the results depend on the processing

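The counts with DHEA, Wy, ETH, PBO, MPy and CIDB stayed within 1.5 times the reported count under every alternative that kept all 6 arrays. With the 6 compared arrays alone the counts were 7 for CPA (21.2%, against 5.5% of all probe sets), 8 for DES (24.2% against 9.38%), 3 for TAA (9.09% against 5.53%) and 0 for PB (0.0% against 0.321%). Array weights gave 1 for AA (3.03%, against 9.34% of all probe sets), 6 for DMN (18.2% against 22.1%) and 1 for Mcarb (3.03% against 1.73%). They gave 7 for Nif (21.2% against 18.1%) and 1 for PB (3.03% against 0.876%). Vehicle animals pooled by vehicle gave 5 for Mcarb (15.2% against 6.62%). Quantile normalization gave 2 for Nif (6.06% against 7.48%), and a trended, robust variance prior gave 1 for PB (3.03% against 1.3%). Counting any probe set of a gene gave 2 for AA and 1 for DMN. Leaving out single arrays gave 0 to 1 for AA, 4 to 8 for CIDB, 5 to 15 for CPA, 12 to 16 for DES, 20 to 25 for DHEA, 17 to 21 for ETH, 6 to 9 for MPy, 0 to 1 for Mcarb, 1 to 2 for Nif, 0 to 3 for PB, 9 to 13 for PBO, 2 to 8 for TAA and 21 to 24 for Wy. The share over all probe sets then ran from 1.99% to 3.71% for AA, 9.81% to 14.1% for CIDB, 3.78% to 8.11% for CPA and 11.7% to 13.7% for DES. It was 11.8% to 15.3% for DHEA, 18.8% to 23.2% for ETH, 4.11% to 4.68% for MPy and 0.265% to 2.14% for Mcarb. For Nif it was 3.98% to 7.21%, for PB 0.555% to 3.4%, for PBO 9.93% to 13.4%, for TAA 3.69% to 6.05% and for Wy 8.26% to 12.7%. The lowest values came without CIDB animals 1 or 2 or vehicle animal 6 of set 3 (CIDB), without vehicle animal 4 of set 1 (TAA), and without any single array of Nif. Masp1 turned direction on its other 2 probe sets with CPA (0.13 and 0.16) and PBO (0.23 and 0.03), Clu did so with PBO (−0.22), and Masp2 with Nif was at 0 on its other probe set. The causes were not tested. PB and CPA share replicate numbers 1 to 3 with their vehicle sets. Deviations of same-numbered animals correlated between −0.153 and 0.165. Such values show no strong shared deviation, but they cannot tell whether the numbers pair the animals. With replicate block the counts were 8 for CPA (24.2%, against 6.01% of all probe sets) and 0 for PB (0.0% against 0.189%). The class contrasts called 0 genes under every alternative run. Between vehicle sets the counts with 1 array left out ran from 0 to 3 for set 1 against 5 (0.334% to 5.25% of all probe sets), and 1 to 2 for 1 against 6 (2.28% to 6.81%). They ran from 0 to 1 for 2 against 5 (0.914% to 2.46%), 0 to 3 for 2 against 6 (0.454% to 3.38%) and 2 to 5 for 5 against 6 (5.59% to 9.99%). The 6 arrays alone called 0 for 1 against 6 (0.0378% of all) and 5 against 6 (0.145%). Of the single-gene differences under alternatives that kept every array of the comparison, 571 kept their direction and side of the threshold, 76 kept the direction but were no longer called and 5 turned. These came from 105 comparisons named because they were called, so none could gain a call. With single arrays left out, 526 of their differences stayed called and 104 kept only the direction.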

Other observations

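Of 23 acute phase genes measured, DHEA lowered 12 (8.37% of all probe sets) and Wy 13 (6.45%), and neither raised any by limma (9.3% and 6.5%). ETH lowered 7 and raised 4 (11.8% and 11.7%), PBO lowered 7 and raised 1 (7.46% and 7.03%), and CPA lowered 6 (4.73%). The list mixes genes that rise in an acute phase response with others that fall, such as Alb and Ttr, so its counts have no single meaning. It shares Alb, Ttr, Ahsg and Apoa1 with the hepatocyte markers, A2m and Fgb with the coagulation genes and Cd14 with the macrophage markers. Itih4, an inter-alpha-trypsin inhibitor chain, fell by 0.91 ± 0.08 with ETH, 0.79 ± 0.08 with Wy and 0.49 ± 0.08 with DHEA. Hamp, the iron hormone hepcidin, fell by 1.98 ± 0.44 with Wy. Orm1, orosomucoid, rose by 1.00 ± 0.12 with DES, in livers where Hp, haptoglobin, fell by 0.37 ± 0.05. Lman1, which with Mcfd2 carries factors V and VIII out of the endoplasmic reticulum, fell by 1.13 ± 0.12 with Nif and rose by 0.66 ± 0.12 with AA, and Mcfd2 fell by 0.83 ± 0.08 with DES. C1qbp, a mainly mitochondrial protein that can bind C1q, rose by 0.81 ± 0.09 with ETH, 0.54 ± 0.09 with MPy, 0.45 with DHEA and 0.41 with TAA, and was thus higher both where the C1q genes rose (ETH) and where they fell (DHEA).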
